A study of Mus musculus with 12 samples.

Results

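The genes described here serve the antioxidant defence of the mouse kidney: the transcription factor gene Nfe2l2, which encodes NRF2, genes that NRF2 is known to induce, and genes of glutathione, peroxide and superoxide metabolism. Membership was set by a list of 39 gene symbols, and the rule itself used no measured difference, though the list was drawn up with earlier results of these data known. Each gene was represented by its probe set with the highest mean over 12 arrays, where the platform annotation gave that probe set 1 symbol. By this rule 34 of the 39 genes were measured, of 19934 genes in all. Gsta2 had 4 probe sets, all shared with other symbols. Ggt1, Prdx5, Prdx6 and G6pdx had 0 probe sets under these symbols and were not analysed here.

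Total RNA of whole kidneys from female mice of C57BL/6 background was hybridised to Affymetrix mouse gene arrays after 2 months on a high-protein diet, with 1 array per mouse and 4 mice per genotype. Mut-/- mice lacked Mut (current symbol Mmut), the gene of mitochondrial methylmalonyl-CoA mutase, and carried the transgene TgINS-Alb-Mut, which is known to express the enzyme in liver under an albumin promoter. Mut+/- mice were heterozygotes and Mut+/+ mice were wild type, and their labels name no transgene. The effects of the transgene and of the missing renal enzyme therefore cannot be told apart, every group ate the same diet, and the ages are not given in the sources used here. The labels do not say whether the mice were littermates, and p-values measure the spread between these mice only. The design text names the renal disease of methylmalonic acidemia as the subject, and the comparisons here ask which antioxidant transcripts differ with genotype.

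NRF2 is held by KEAP1, which marks it for degradation. When oxidants or electrophiles modify KEAP1, NRF2 accumulates, pairs with small MAF proteins and binds antioxidant response elements, a step that the repressor BACH1 opposes. Its activity is thus set largely at the protein level, and these arrays measured transcripts only. Glutathione is made by glutamate-cysteine ligase and glutathione synthetase, and transferases and peroxidases use it. Superoxide dismutases turn superoxide into hydrogen peroxide, which catalase, glutathione peroxidases and peroxiredoxins remove. The proximal tubule, rich in mitochondria, is a main site of glutathione turnover in the kidney.

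The bases before the transcription start sites are shown for 4 genes that differed between genotypes, because NRF2 is known to act through a short motif there. The promoter sequences are those of RefSeq on GRCm38.p6 and were matched by symbol for 33 of the 39 genes. Hmox1, Gclc, Gsr, Gsta4, Sod3 and Prdx6 had no matched sequence and were not searched. The core of the antioxidant response element was searched as TGACNNNGC on both strands within 250 bases before each start site. Capitals below mark a core or its reverse complement. The windows are chr8:107403206-107403455 on the minus strand for Nqo1, chr16:93682969-93683218 on the plus strand for Cbr3, chr6:138140277-138140526 on the plus strand for the upstream of 2 listed start sites of Mgst1, and chr3:122245307-122245556 on the plus strand for Gclm. Each is written 5′ to 3′ on the strand of its gene.
Nqo1: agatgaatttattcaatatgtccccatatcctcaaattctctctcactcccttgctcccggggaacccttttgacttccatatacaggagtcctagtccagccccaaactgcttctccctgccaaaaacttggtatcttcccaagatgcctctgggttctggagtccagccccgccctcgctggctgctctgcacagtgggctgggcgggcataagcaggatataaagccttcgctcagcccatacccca
Cbr3: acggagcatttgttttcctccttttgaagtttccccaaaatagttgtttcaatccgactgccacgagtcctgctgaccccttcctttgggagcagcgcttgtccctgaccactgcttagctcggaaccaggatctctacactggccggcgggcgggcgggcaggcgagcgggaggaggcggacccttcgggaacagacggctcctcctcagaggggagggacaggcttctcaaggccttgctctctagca
Mgst1: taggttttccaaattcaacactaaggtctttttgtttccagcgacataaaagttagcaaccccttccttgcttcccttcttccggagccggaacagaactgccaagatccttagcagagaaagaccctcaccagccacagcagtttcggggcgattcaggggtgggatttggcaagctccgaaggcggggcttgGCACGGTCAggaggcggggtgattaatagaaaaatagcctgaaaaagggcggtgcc
Gclm: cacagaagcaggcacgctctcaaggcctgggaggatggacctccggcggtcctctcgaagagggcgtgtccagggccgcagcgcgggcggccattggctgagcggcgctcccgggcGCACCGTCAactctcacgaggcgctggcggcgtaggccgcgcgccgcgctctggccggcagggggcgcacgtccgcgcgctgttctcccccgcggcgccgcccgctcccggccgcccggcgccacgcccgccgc

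The window of Gclm held the core TGACGGTGC on the opposite strand, with its leftmost base 134 bases before the start site. The window of Mgst1 held TGACCGTGC on the opposite strand, 56 bases before the start site. Neither Nqo1 nor Cbr3 held the core in the bases shown, which says nothing of sites farther away. In all, 11 of the 33 genes had a core in at least 1 window (33.3%), against 3112 of all 27025 genes in the table (11.5%). Besides Gclm and Mgst1 these were Abcc4, G6pdx, Ggt1, Gsta3, Nfe2l2 itself, Prdx1, Sod1, Txnrd1 and Ugdh. The stricter form TGACTCAGC, which overlaps the core motif and also the site of AP-1 factors, was in the window of 1 of the 33 genes, Prdx1, against 0.426% of all genes. Of the 8 genes that differed between genotypes in any comparison below, 4 held a core, namely Gclm, Mgst1, Sod1 and Gsta3. Txnrd1, Prdx1, Ugdh, Abcc4 and Nfe2l2 held a core and did not pass the test in any comparison.

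**Figure D1:**
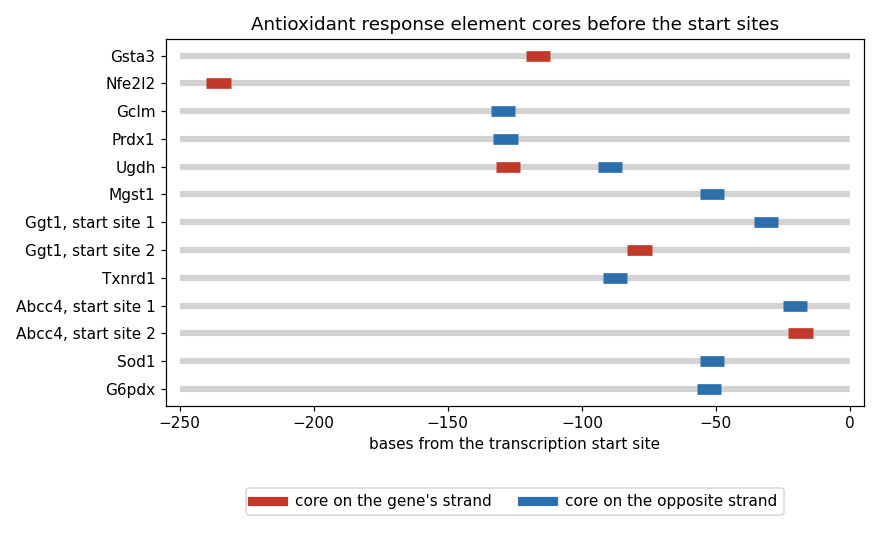
Position of each antioxidant response element core (TGACNNNGC) in the 250 bases before the start sites of the genes that held one, in bases from the transcription start site. Red marks the gene's own strand and blue the opposite strand, and genes with cores at 2 start sites have a line for each; the cores lie between 240 and 23 bases before the start sites.

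The arrays were checked before the genes were compared. Mmut averaged 8.35 ± 0.12 on the log2 scale in Mut-/-, 9.92 ± 0.04 in Mut+/- and 10.53 ± 0.06 in Mut+/+ kidneys (SD, n = 4 each). Array medians lay between 7.17 and 7.23. Markers of the proximal tubule were present on all arrays, with a mean level from 11.95 to 12.26 in Mut-/-, 12.15 to 12.19 in Mut+/- and 12.17 to 12.22 in Mut+/+ kidneys. Mut-/- replicate 3 stood apart: all 5 adrenal steroid synthesis markers were high on it, with a mean level of 10.92, against 5.57 to 5.65 on the other Mut-/- arrays, 5.60 to 5.95 in Mut+/- and 5.49 to 5.71 in Mut+/+ kidneys. Its Cyp11b1, an adrenal 11-beta-hydroxylase gene, read 12.65, against 5.79 to 5.96 on the other Mut-/- arrays. Mut-/- replicate 2 had the highest neutrophil marker level, 7.43 against at most 6.28 on the other Mut-/- arrays, with S100a8 at 8.57 and S100a9 at 9.38. Ly6g was 6.21 on it, against at most 6.01 in Mut+/- kidneys. Mpo and Elane did not follow, at 6.28 and 6.69, with 6.40 and 6.77 on Mut-/- replicate 3. Lower in Mut-/- than in Mut+/+ kidneys were 4 of 6 distal tubule, 3 of 7 endothelial and 2 of 4 podocyte markers. Of all genes, 6.69% were called lower in that comparison by limma. Of 8 collecting duct markers Aqp3 was higher and Slc26a4 lower. Of 10 proximal tubule markers Cubn alone passed, lower in Mut-/-, and none of 5 thick ascending limb markers did. The part of these cell types in the results below was not tested. Several results below are also given without 1 of these arrays. In whole tissue, fewer cells of a type and less RNA per cell cannot be told apart.

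In Mut-/- against Mut+/+ kidneys, 6 of the 34 genes passed the test, 4 higher and 2 lower, by limma at an adjusted p under 0.05. Mgst1, Nqo1, Cbr3 and Gpx4 were higher, between 1.24-fold and 2-fold, and Gclm and Sod1 were lower, 1.43-fold and 1.13-fold. The transcript of NRF2 itself did not pass. Of all genes tested, 9.66% passed in this comparison, 2.96% higher and 6.69% lower, and of the 34 genes 17.6% passed. Most differences were small: 27 of the 34 were under 1.2-fold, and the median log2 difference was 0.04, against 0.00 over all genes. The groups did not overlap in 9 of the 34 genes, against 14.7% of all genes. When Mut-/- replicate 3 was left out, 5 of these 6 genes passed and no other member did, with Sod1 lost. When replicate 2 was left out, again 5 of the 6 passed without Sod1, and Cbr1 passed as well. Of all genes 7.79% passed without replicate 3 and 8.14% without replicate 2.

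**Figure D2:**
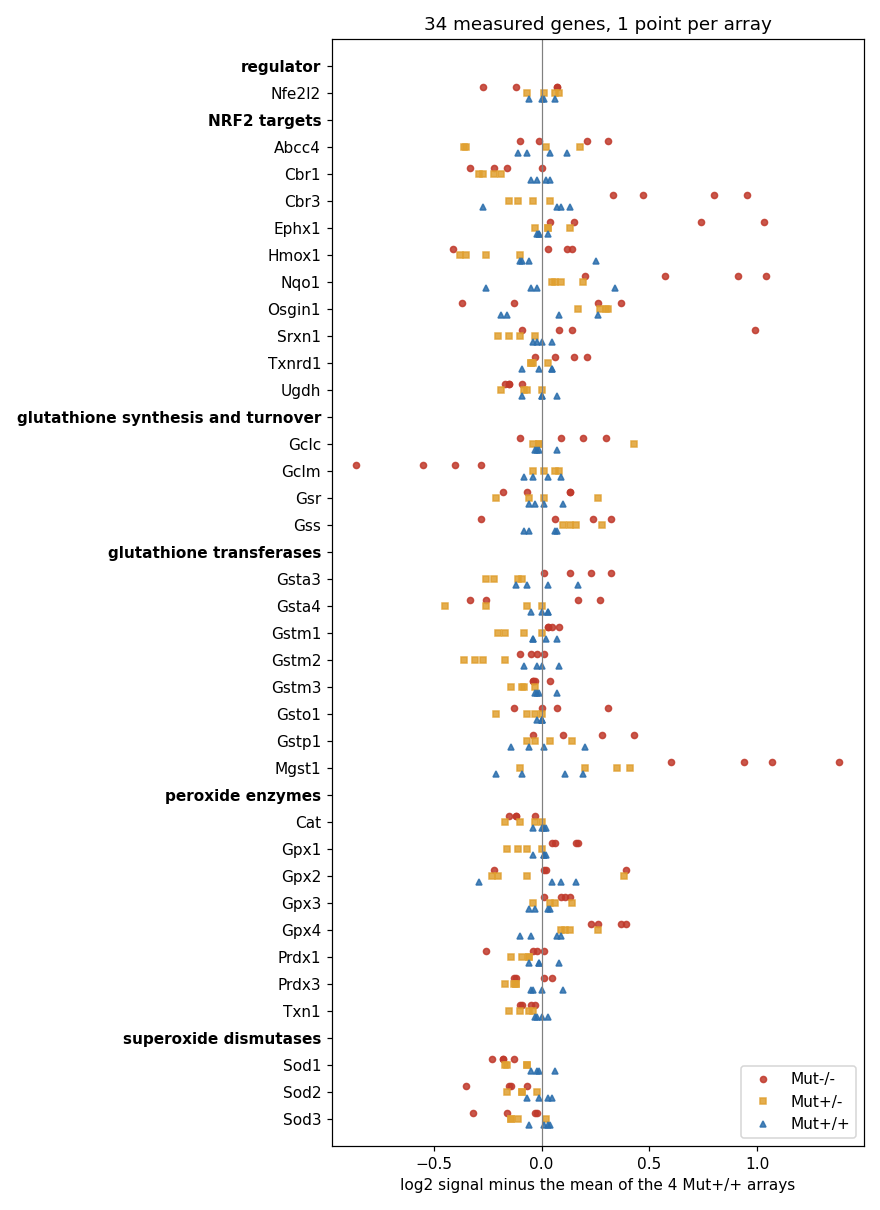
Log2 signal of the 34 measured genes on each of 12 arrays, minus the mean of the 4 Mut+/+ arrays, grouped by role; red circles are Mut-/-, amber squares Mut+/- and blue triangles Mut+/+ kidneys. Mgst1 and Cbr3 lie to the right on all 4 Mut-/- arrays and Gclm to the left, while Srxn1 and Ephx1 stand out on only some Mut-/- arrays.

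Nfe2l2 read 10.33, 10.67, 10.67 and 10.48 on the log2 scale in Mut-/- kidneys, 10.61, 10.53, 10.66 and 10.68 in Mut+/- kidneys and 10.60, 10.61, 10.54 and 10.66 in Mut+/+ kidneys. The groups overlapped, with replicates 1 and 4 of Mut-/- below every other array. The log2 difference of Mut-/- from Mut+/+ was -0.07 (95% interval -0.22 to 0.09, adjusted p = 0.627). That from Mut+/- was -0.08 (95% interval -0.24 to 0.07, adjusted p = 0.668).

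Among the 10 measured targets of NRF2, Nqo1 and Cbr3 passed between Mut-/- and Mut+/+, both higher (20%, beside 9.66% of all genes). Nqo1, which encodes a quinone reductase and is a classical NRF2 target, read 9.75, 9.41, 9.88 and 9.04 in Mut-/- kidneys, 8.93, 8.89, 9.03 and 8.90 in Mut+/- kidneys and 8.82, 9.18, 8.58 and 8.79 in Mut+/+ kidneys. Mut-/- replicates 1 and 3 were the highest, and replicate 4 lay within the range of Mut+/+. Nqo1 was 1.6-fold higher in Mut-/- than in Mut+/+ kidneys (log2 difference 0.68, SE 0.16, adjusted p = 0.0159). The two-sided exact permutation p of these 8 arrays was 0.0571. Without Mut-/- replicate 3 the fold was 1.47 (adjusted p = 0.0362), and without Mut+/+ replicate 3 or 4 Nqo1 did not pass, with adjusted p up to 0.0523. Against Mut+/- the arrays did not overlap, but the difference of 0.58 did not pass (adjusted p = 0.0705). It was 0.46 without Mut-/- replicate 3 (adjusted p = 0.147), and it passed without replicate 4.

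Cbr3, which encodes a carbonyl reductase, read 6.91, 7.53, 7.38 and 7.05 in Mut-/- kidneys, 6.62, 6.43, 6.47 and 6.54 in Mut+/- kidneys and 6.71, 6.67, 6.65 and 6.31 in Mut+/+ kidneys. All 4 Mut-/- arrays lay above all others. The gene was 1.55-fold higher than in Mut+/+ (log2 difference 0.64, SE 0.12, adjusted p = 0.00662) and 1.63-fold higher than in Mut+/- kidneys (adjusted p = 0.0097). The folds were 1.5 (adjusted p = 0.0163) and 1.57 (adjusted p = 0.0225) without Mut-/- replicate 3. Its relative Cbr1 went the other way, with 11.14 ± 0.14 in Mut-/-, 11.08 ± 0.05 in Mut+/- and 11.32 ± 0.04 in Mut+/+ kidneys (SD, n = 4 each), and did not pass against Mut+/+ (log2 difference -0.17, adjusted p = 0.102).

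The inducible haem oxygenase gene Hmox1, another classical target, read 8.26, 8.24, 8.15 and 7.71 in Mut-/- kidneys, 7.86, 8.02, 7.74 and 7.77 in Mut+/- kidneys and 8.06, 8.37, 8.02 and 8.03 in Mut+/+ kidneys. Mut-/- and Mut+/+ arrays overlapped throughout (log2 difference -0.03, 95% interval -0.28 to 0.22, adjusted p = 0.911). The Mut+/- arrays were all at or below the lowest Mut+/+ array, without passing the test (log2 difference -0.27, adjusted p = 0.408).

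Srxn1 was raised on 1 Mut-/- array and Ephx1 mainly on 2. Srxn1, whose product sulfiredoxin repairs overoxidised peroxiredoxins, read 9.32, 9.26, 10.17 and 9.09 in Mut-/- kidneys, 9.15, 8.98, 9.08 and 9.03 in Mut+/- kidneys and 9.18, 9.23, 9.16 and 9.14 in Mut+/+ kidneys. The high array was Mut-/- replicate 3, the one with adrenal markers. The log2 difference from Mut+/+ was 0.28 with all arrays (adjusted p = 0.344) and 0.04 without that array (adjusted p = 0.772). Ephx1, which encodes microsomal epoxide hydrolase, read 10.13, 11.01, 10.72 and 10.02 in Mut-/- kidneys, against 10.01, 9.97, 9.97 and 9.96 in Mut+/+ kidneys. All 4 Mut-/- arrays lay above the Mut+/+ arrays, with replicates 2 and 3 far above, while the 4 Mut+/- arrays averaged 10.02 ± 0.07. Its 1.41-fold difference from Mut+/+ did not pass (adjusted p = 0.0768). The log2 difference of 0.49 became 0.32 without Mut-/- replicate 2 (adjusted p = 0.151) and 0.41 without replicate 3 (adjusted p = 0.175), and it passed without replicate 1 or 4.

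The other NRF2 targets did not pass in any comparison. Txnrd1, which encodes cytosolic thioredoxin reductase, read 9.41, 9.50, 9.56 and 9.32 in Mut-/- kidneys, 9.38, 9.30, 9.31 and 9.30 in Mut+/- kidneys and 9.34, 9.40, 9.26 and 9.40 in Mut+/+ kidneys (log2 difference of Mut-/- from Mut+/+ 0.10, adjusted p = 0.332). Osgin1, an oxidative stress induced growth inhibitor gene, spread from 8.63 to 9.37 in Mut-/- kidneys, against 9.17 to 9.31 in Mut+/- and 8.81 to 9.26 in Mut+/+ kidneys (adjusted p = 0.916 against Mut+/+). Replicates 1 and 2 of Mut-/- held its 2 highest values in that group, 9.26 and 9.37, and replicate 3 its lowest. Abcc4, an export pump gene, overlapped between all groups, and Ugdh, which makes UDP-glucuronate, was lower on all 4 Mut-/- than on all 4 Mut+/+ arrays without passing (log2 difference -0.14, adjusted p = 0.123).

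In the synthesis and turnover of glutathione, Gclm alone passed among 4 measured genes, 25% against Mut+/+ beside 9.66% of all genes. Gclm encodes the modifier subunit of glutamate-cysteine ligase, and like Nqo1 it is known as an NRF2 target. It read 11.02, 11.29, 10.71 and 11.17 in Mut-/- kidneys, 11.53, 11.65, 11.58 and 11.63 in Mut+/- kidneys and 11.49, 11.53, 11.60 and 11.66 in Mut+/+ kidneys. Every Mut-/- array lay below every other array, and the controls were close to each other. The level was 1.43-fold lower than in Mut+/+ (log2 difference -0.52, SE 0.10, adjusted p = 0.00528) and 1.46-fold lower than in Mut+/- kidneys (adjusted p = 0.00982). Without Mut-/- replicate 3, the lowest array, it was 1.33-fold lower than in Mut+/+ (adjusted p = 0.00323). The mean level of 7 markers of the proximal tubule S3 segment also was lowest on that array, 9.31, with 9.77 to 10.03 on the other Mut-/- arrays, 10.07 to 10.12 in Mut+/- and 10.17 to 10.25 in Mut+/+ kidneys, and 4 of the 7 were lower in Mut-/- than in Mut+/+. Of the same list Slc7a13 went the other way, with means of 6.35 in Mut-/- and 5.83 in Mut+/+, without passing by limma (adjusted p = 0.0971). Slc5a8 and Cyp7b1 did not pass either, at log2 differences of -0.09 and -0.26. The part of S3 cells in the fall of Gclm was not tested.

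The catalytic subunit gene Gclc read 11.60, 11.70, 11.81 and 11.41 in Mut-/- kidneys, 11.94, 11.50, 11.50 and 11.47 in Mut+/- kidneys and 11.58, 11.48, 11.49 and 11.50 in Mut+/+ kidneys. It did not pass against Mut+/+ (log2 difference 0.12, 95% interval -0.10 to 0.34, adjusted p = 0.529). The interval of Gclc thus lay above that of Gclm, which ran from -0.73 to -0.31, though the difference between the 2 subunits was not tested. Gsr, which encodes glutathione reductase, averaged 10.27 ± 0.15 in Mut-/-, 10.27 ± 0.20 in Mut+/- and 10.27 ± 0.07 in Mut+/+ kidneys (SD, n = 4 each), and the 95% interval of its difference between Mut-/- and Mut+/+ was -0.20 to 0.20. Gss, which encodes glutathione synthetase, ranged from 10.03 to 10.63 in Mut-/-, 10.41 to 10.59 in Mut+/- and 10.23 to 10.38 in Mut+/+ kidneys and did not pass.

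**Figure D3:**
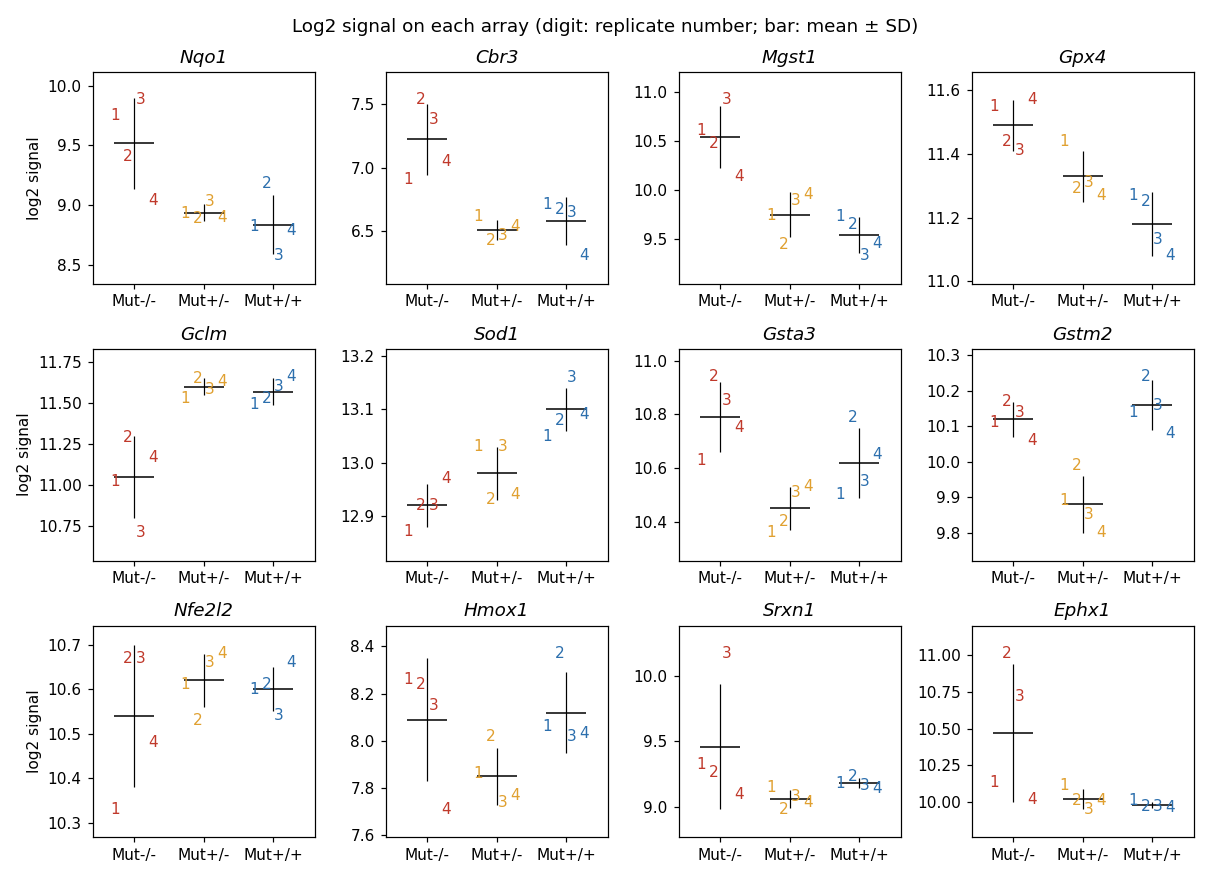
Log2 signal of 12 genes on each array, with the replicate number as the symbol, and the mean ± SD of 4 arrays per genotype as a black bar. Mut-/- is at the left of each panel, then Mut+/- and Mut+/+; axes differ between panels and do not start at 0. Cbr3, Mgst1 and Gclm separate Mut-/- from both other genotypes, while in Srxn1 only replicate 3 of Mut-/- is high.

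The glutathione transferases conjugate glutathione to electrophiles, and 1 of 8 measured genes passed against Mut+/+ (12.5%, beside 9.66% of all genes). This was Mgst1, the microsomal transferase and peroxidase gene, which showed the largest difference among the 34 genes. It read 10.61, 10.48, 10.92 and 10.14 in Mut-/- kidneys, 9.74, 9.44, 9.89 and 9.95 in Mut+/- kidneys and 9.73, 9.65, 9.33 and 9.45 in Mut+/+ kidneys. All 4 Mut-/- arrays lay above all 8 others. The level was 2-fold that of Mut+/+ (log2 difference 1, SE 0.15, adjusted p = 0.00148) and 1.73-fold that of Mut+/- kidneys (adjusted p = 0.0153). The highest array was the one with adrenal markers, and without it Mgst1 was 1.83-fold higher than in Mut+/+ (adjusted p = 0.00239) and 1.58-fold higher than in Mut+/- kidneys (adjusted p = 0.0259).

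Gsta3 and Gstm2 passed between Mut-/- and Mut+/- only, with the Mut+/- arrays low. Gsta3 read 10.63, 10.94, 10.85 and 10.75 in Mut-/- kidneys, 10.36, 10.40, 10.51 and 10.53 in Mut+/- kidneys and 10.50, 10.79, 10.55 and 10.65 in Mut+/+ kidneys. It was 1.27-fold higher in Mut-/- than in Mut+/- (adjusted p = 0.0319) and did not pass against Mut+/+ (log2 difference 0.17, adjusted p = 0.187). Gstm2 read 10.11, 10.17, 10.14 and 10.06 in Mut-/- kidneys, 9.89, 9.99, 9.85 and 9.80 in Mut+/- kidneys and 10.14, 10.24, 10.16 and 10.08 in Mut+/+ kidneys. It was 1.18-fold higher in Mut-/- than in Mut+/- (adjusted p = 0.0335), while Mut-/- and Mut+/+ overlapped (log2 difference -0.03, adjusted p = 0.759). The call of Gsta3 was lost on leaving out Mut-/- replicate 2 or 3 or any Mut+/- array (adjusted p at most 0.0995). That of Gstm2 was lost on leaving out Mut-/- replicate 1, 2 or 3 or Mut+/- replicate 1, 3 or 4 (adjusted p at most 0.107). The Mut+/- mean of Gstm2 was 1.21-fold below Mut+/+ with no overlap, which did not pass (adjusted p = 0.0804) but passed with array weights and with a trended, robust prior.

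The remaining 5 transferase genes, Gsta4, Gstm1, Gstm3, Gstp1 and Gsto1, did not pass in any comparison, with log2 differences of Mut-/- from Mut+/+ between -0.04 and 0.19. For Gstm3 that difference was -0.02, and a second, dimmer probe set gave 0.03 and did not pass either. All 8 transferase genes had a higher mean in Mut-/- than in Mut+/- kidneys, as did 9281 of all 19934 genes. Their median log2 difference was 0.17, against -0.01 over all genes, but the 3 named above alone passed. Compared with Mut+/+, 5 of the 8 had a higher mean in Mut-/-, with a median of 0.06, and 6 had a lower mean in Mut+/-. The comparisons with Mut+/- and with Mut+/+ share the Mut-/- arrays. Close relatives among the Gsta and Gstm genes can share probe sequence, and the probes were not analysed here.

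Of the 8 measured peroxide enzyme genes, Gpx4 alone passed against Mut+/+ (12.5%, beside 9.66% of all genes). Gpx4 encodes the glutathione peroxidase that reduces lipid hydroperoxides in membranes and restrains ferroptosis. It read 11.55, 11.44, 11.41 and 11.57 in Mut-/- kidneys, 11.44, 11.29, 11.31 and 11.27 in Mut+/- kidneys and 11.27, 11.25, 11.13 and 11.08 in Mut+/+ kidneys. The Mut-/- arrays all lay above the Mut+/+ arrays, and the Mut+/- mean lay between them. It was 1.24-fold higher in Mut-/- than in Mut+/+ (log2 difference 0.31, SE 0.06, adjusted p = 0.00751). Its second probe set gave a log2 difference of 0.29 (adjusted p = 0.00985, with every probe set tested on its own). Without Mut-/- replicate 3 the fold was 1.26 (adjusted p = 0.00812). The differences of 0.17 between Mut-/- and Mut+/- and 0.14 between Mut+/- and Mut+/+ did not pass (adjusted p = 0.188 and 0.404).

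Gpx1, the cytosolic glutathione peroxidase gene, was higher on all 4 Mut-/- arrays, 12.09 to 12.21, than in Mut+/- (11.88 to 12.04) and Mut+/+ (12 to 12.06). Its 1.15-fold difference from Mut+/- had an adjusted p of 0.0552 and that of 1.08-fold from Mut+/+ one of 0.181. Gpx3, which encodes the plasma peroxidase made by the proximal tubule, read 13.21, 13.19, 13.09 and 13.17 in Mut-/- kidneys, 13.22, 13.04, 13.14 and 13.12 in Mut+/- kidneys and 13.11, 13.05, 13.12 and 13.02 in Mut+/+ kidneys (log2 difference of Mut-/- from Mut+/+ 0.09, adjusted p = 0.311). Gpx2, known mainly from the gut, was dim on every array, with group means of 5.97, 5.89 and 5.92 in Mut-/-, Mut+/- and Mut+/+ kidneys, and did not pass.

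Catalase and the peroxiredoxins did not pass in any comparison. Cat, which encodes the peroxisomal enzyme, read 12.58, 12.70, 12.61 and 12.61 in Mut-/- kidneys, 12.63, 12.56, 12.70 and 12.73 in Mut+/- kidneys and 12.69, 12.74, 12.73 and 12.75 in Mut+/+ kidneys, and its log2 difference of -0.10 had a 95% interval from -0.21 to 0.00 (adjusted p = 0.224). Prdx1, the cytosolic peroxiredoxin gene, Prdx3, the mitochondrial one, and the thioredoxin gene Txn1 differed from Mut+/+ by -0.07, -0.05 and -0.06 in Mut-/- kidneys, and by -0.09, -0.13 and -0.08 in Mut+/- kidneys, on the log2 scale. For these 3 genes the Mut+/- arrays all lay below the Mut+/+ arrays. A second, dimmer probe set of Prdx1 differed from Mut+/+ by 0.03 in Mut-/- and by -0.08 in Mut+/- kidneys. It thus had the opposite sign in Mut-/-, and it passed in no comparison.

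All 3 superoxide dismutase genes had lower means in Mut-/- than in Mut+/+ kidneys, as did 9682 of all 19934 genes. Of the 3, 1 passed, and of all genes 6.69% passed with a lower level. Sod1, which encodes the cytosolic copper and zinc enzyme, read 12.87, 12.92, 12.92 and 12.97 in Mut-/- kidneys, 13.03, 12.93, 13.03 and 12.94 in Mut+/- kidneys and 13.05, 13.08, 13.16 and 13.09 in Mut+/+ kidneys. The Mut-/- arrays lay below all Mut+/+ arrays and overlapped those of Mut+/-. The 1.13-fold difference (log2 difference -0.18, SE 0.05, adjusted p = 0.0296) was no longer called when Mut-/- replicate 1, 2 or 3 or Mut+/+ replicate 2, 3 or 4 was left out (adjusted p at most 0.0808). It did not pass with the replicate number as a block either (adjusted p = 0.0614). Sod2, which encodes the mitochondrial manganese enzyme, read 12, 12.01, 11.80 and 12.08 in Mut-/- kidneys, 11.99, 12.13, 12.06 and 12.06 in Mut+/- kidneys and 12.08, 12.14, 12.18 and 12.20 in Mut+/+ kidneys. The Mut-/- arrays were at or below the lowest Mut+/+ array, with replicate 3 the lowest, and the log2 difference of -0.18 did not pass (adjusted p = 0.0832). It was -0.12 without Mut-/- replicate 3 (adjusted p = 0.195), and it passed without replicate 4. Sod3, the extracellular enzyme gene, differed by -0.14 (adjusted p = 0.232), and by -0.07 without Mut-/- replicate 3 (adjusted p = 0.525).

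**Figure D4:**
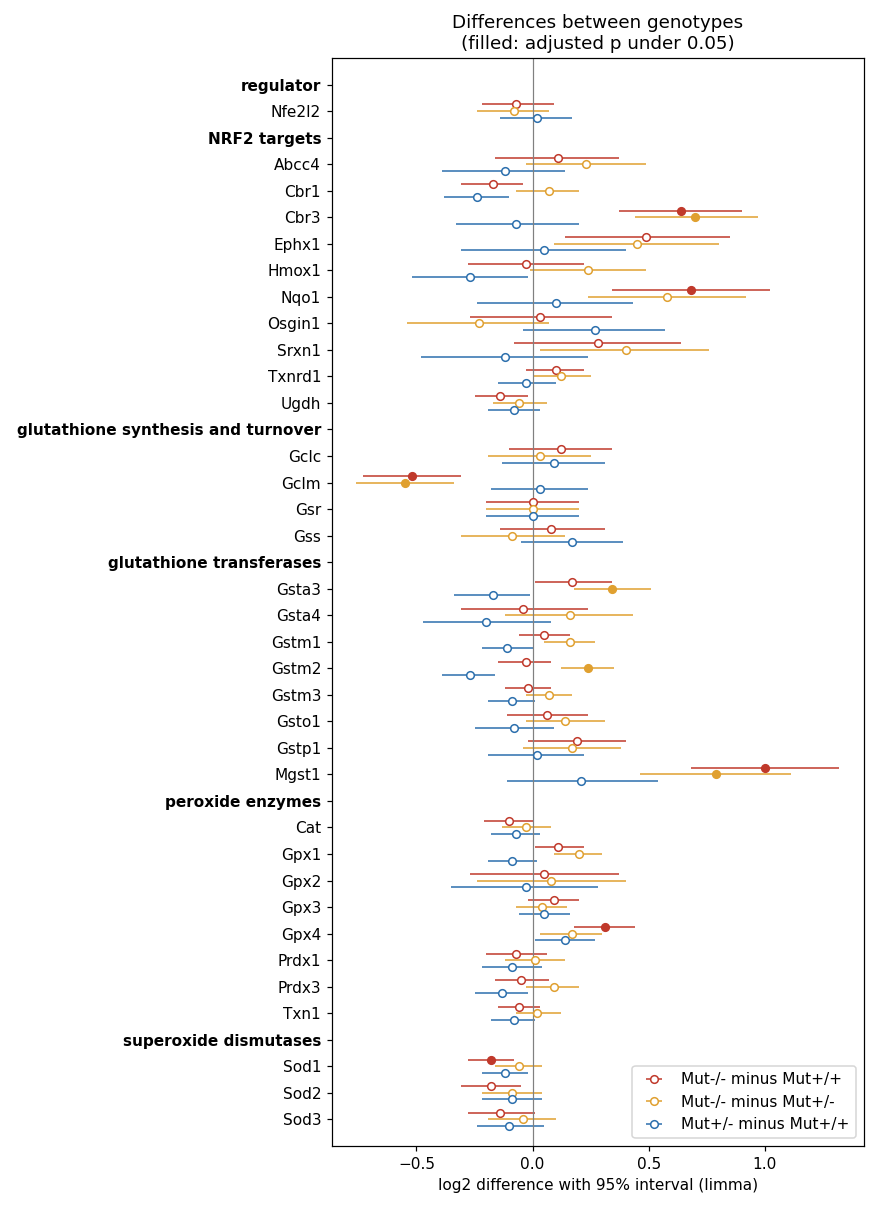
Log2 difference with its 95% interval from limma for the 34 genes in 3 comparisons: Mut-/- minus Mut+/+ in red, Mut-/- minus Mut+/- in amber and Mut+/- minus Mut+/+ in blue; filled points passed an adjusted p under 0.05. Filled red points are the 4 higher and 2 lower genes of Mut-/- against Mut+/+, and no blue point is filled.

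In Mut-/- against Mut+/- kidneys, 5 of the 34 genes passed: Mgst1, Cbr3, Gsta3 and Gstm2 were higher and Gclm was lower. Of all genes 2.54% passed, 1.07% higher and 1.46% lower, and of the 34 genes 14.7% did. The groups did not overlap in 8 of the 34 genes, against 9.69% of all genes. The count was 3 without Mut-/- replicate 2 or 3 or any 1 of Mut+/- replicates 1, 3 and 4, and 8 without Mut-/- replicate 4. Mgst1, Cbr3 and Gclm passed in each of the 12 fits that left out 1 array. Of all genes 1.15% to 2.97% passed in those fits. With only these 2 groups in the fit, Cbr3 alone passed, beside 0.958% of all genes.

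In Mut+/- against Mut+/+ kidneys, none of the 34 genes passed by limma, where 0.135% of all genes did, 0.0652% higher and 0.0702% lower. At an unadjusted p under 0.05 there were 8 of the 34, and the share of all genes at that threshold was not counted. The groups did not overlap in 9 of the 34 genes, 8 of them lower in Mut+/-, against 8.44% of all genes. The mean of Mut+/- was the lowest of the 3 genotypes in 18 of the 34 genes (52.9%), against 24.1% of all genes, and it lay between the others in 12 (35.3%), against 45.4% of all genes. Among the transferases it was lowest in 6 of 8 and among the peroxide enzymes in 5 of 8, while for the 3 dismutases it lay between the other means. The median log2 difference of the 34 genes was -0.08 as deposited, -0.07 after quantile normalization and -0.09 with array medians centred, against 0.01, 0.01 and -0.01 over all genes.

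The spread among arrays was also compared between genotypes. The median SD of the 34 genes was 0.146 in Mut-/-, 0.077 in Mut+/- and 0.062 in Mut+/+ kidneys, against 0.099, 0.075 and 0.085 over all genes. The SD was largest in Mut-/- for 20 of the 34, against 9634 of all 19934 genes. Replicate 2 was the highest Mut-/- array in 16 of the 34 genes (47.1%), against 19.8% of all genes, and replicate 4 the lowest in 14 (41.2%), against 25.1%. The spread of the Mut-/- group was not tested against the others.

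Beyond these genes, 121 further genes of the same pathways were listed by role, and 114 of them were measured. In Mut-/- against Mut+/+ kidneys 22 of the 114 passed (19.3%), 13 higher and 9 lower, beside 9.66% of all genes. Leaving out Mut-/- replicate 3 again gave 22, 20 of them shared, and leaving out replicate 2 gave 19, 18 of them shared. The shares of all genes were 7.79% and 8.14% in these fits. The count was 13 without Mut+/+ replicate 4 (5.11% of all genes) and with only the groups compared in the fit (5.79%).

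Among 14 regulators of NRF2, Bach1, the gene of its repressor, was higher in Mut-/- kidneys, at 9.40, 9.61, 9.52 and 9.42, against 9.14, 9.18, 9.19 and 9.23 in Mut+/- and 9.19, 9.20, 9.12 and 9.10 in Mut+/+ kidneys. No Mut-/- array overlapped the others. The gene was 1.26-fold higher than in Mut+/+ (log2 difference 0.33, SE 0.05, adjusted p = 0.00241) and 1.23-fold higher than in Mut+/- kidneys (adjusted p = 0.0114), and 1.25-fold higher than in Mut+/+ without Mut-/- replicate 3. Keap1 overlapped between genotypes, with 8.60, 8.59, 8.65 and 8.61 in Mut-/-, 8.60, 8.52, 8.55 and 8.50 in Mut+/- and 8.60, 8.56, 8.43 and 8.48 in Mut+/+ kidneys (log2 difference of Mut-/- from Mut+/+ 0.09, adjusted p = 0.255). Of the 14 regulators 21.4% passed between Mut-/- and Mut+/+, beside 9.66% of all genes. The other 2 regulators that passed were lower in Mut-/- than in Mut+/+ and were named after their values were seen. They were Btrc, of a ubiquitin ligase that can target NRF2, and the kinase gene Gsk3b. Their log2 differences were -0.34 and -0.32 (adjusted p = 0.00465 and 0.00326).

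Of 34 further measured genes of glutathione supply and use, 3 were higher and 4 lower in Mut-/- than in Mut+/+ kidneys. The share called was 20.6%, beside 9.66% of all genes. Ggct, which encodes the gamma-glutamylcyclotransferase that makes 5-oxoproline, read 7.56, 7.50, 7.23 and 7.45 in Mut-/-, 7.46, 7.63, 7.71 and 7.20 in Mut+/- and 8.06, 8.31, 8.34 and 8.49 in Mut+/+ kidneys. The Mut-/- and Mut+/- arrays all lay below the Mut+/+ arrays and overlapped each other, and the cause was not tested. Ggct was 1.82-fold lower in Mut-/- than in Mut+/+ (adjusted p = 0.000662) and 1.74-fold lower in Mut+/- than in Mut+/+ (adjusted p = 0.021). It was the only one of the 114 genes to pass between Mut+/- and Mut+/+. There, 24 had an unadjusted p under 0.05, and the share of all genes at that threshold was not counted. The Mut+/- call was lost on leaving out Mut+/- replicate 1 or Mut+/+ replicate 2, 3 or 4 (adjusted p at most 0.0988). Against both controls pooled, the difference of Mut-/- was -0.46 and did not pass (adjusted p = 0.208). Oplah, which encodes the 5-oxoprolinase that acts next, read 10.27, 10.53, 10.20 and 10.22 in Mut-/- kidneys, 10.06 ± 0.07 (SD, n = 4) in Mut+/- kidneys and 9.81, 9.81, 9.72 and 9.86 in Mut+/+ kidneys. It was 1.42-fold higher in Mut-/- than in Mut+/+ (adjusted p = 0.000854), and the Mut+/- arrays lay apart from both other groups without passing. The glutathione-degrading cyclotransferase gene Chac1 was 1.28-fold higher, though not without Mut+/+ replicate 2 (adjusted p = 0.0503), and the transferase gene Mgst3 was 1.36-fold higher (adjusted p = 0.015). Lap3, a leucine aminopeptidase gene, was 1.34-fold lower (adjusted p = 0.00342).

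In the list of iron, haem and quinone genes, 3 of 8 were higher in Mut-/- than in Mut+/+ and none was lower. The share called was thus 37.5%, beside 9.66% of all genes. Blvrb, which encodes a biliverdin and flavin reductase, read 10.01, 10.27, 9.80 and 9.61 in Mut-/-, 9.66, 9.76, 9.01 and 9.88 in Mut+/- and 8.74, 8.78, 8.68 and 8.74 in Mut+/+ kidneys. It was 2.28-fold higher in Mut-/- than in Mut+/+ (adjusted p = 0.000911). The 1.79-fold difference of Mut+/- from Mut+/+ had no overlap and did not pass (adjusted p = 0.0796), and Mut-/- and Mut+/- overlapped. Blvra, which encodes the related biliverdin reductase, was 1.28-fold higher in Mut-/- than in Mut+/+ (adjusted p = 0.0245), a call that was lost on leaving out Mut-/- replicate 1 or 3 or Mut+/+ replicate 3 or 4 (adjusted p at most 0.078). With Mut+/- and Mut+/+ pooled as controls, the differences of Blvrb (0.76, adjusted p = 0.0691) and Blvra (0.24, adjusted p = 0.163) did not pass. The mean level of 2 erythroid markers was 9.38, 10.03, 8.17 and 8.83 in Mut-/-, 8.30 to 9.07 in Mut+/- and 8.56 to 8.99 in Mut+/+ kidneys. The part of erythroid cells in these results was not tested.

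Of 12 measured genes among other detoxification targets of NRF2, 2 passed (16.7%, beside 9.66% of all genes), both higher in Mut-/- than in Mut+/+. The aldehyde dehydrogenase gene Aldh1a1 read 9.69, 10.09, 9.89 and 9.55 in Mut-/- kidneys, 8.61, 8.75, 8.94 and 8.94 in Mut+/- kidneys and 8.67, 8.91, 8.89 and 8.83 in Mut+/+ kidneys. No Mut-/- array overlapped the others, and the difference was 1.98-fold from Mut+/+ (log2 difference 0.99, SE 0.11, adjusted p = 0.000237) and 2-fold from Mut+/- (adjusted p = 0.00086). It was, leaving out Mut-/- replicate 3, 1.94-fold from Mut+/+ (adjusted p = 0.000549). Its close relative Aldh1a7 was 1.63-fold higher than in Mut+/+ (adjusted p = 0.00894), and the array may not tell these relatives apart.

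Of 22 thioredoxin, peroxide and superoxide genes 2 passed (9.09%, beside 9.66% of all genes), both lower in Mut-/- than in Mut+/+. The larger difference was that of Txnrd3, a thioredoxin and glutathione reductase gene, 1.4-fold lower (adjusted p = 0.0328), a call that was lost on leaving out Mut-/- replicate 2 or 4 or Mut+/+ replicate 1, 2 or 4 (adjusted p at most 0.0952). Of 8 NADPH supply genes 2 were higher and 1 lower (37.5% called), each within 0.25 on the log2 scale. Of 16 measured genes of superoxide and peroxide sources 2 were higher and none lower (12.5% called). These 2 were Dao and Pipox, and none of the phagocyte oxidase genes of the list passed. Among 9 macrophage markers, which bear on the phagocyte oxidase genes of that list, Lyz2 and Cd68 were higher and Csf1r lower in Mut-/- than in Mut+/+, and the mean level of the list was 7.78 to 8.45 in Mut-/-, 7.85 to 8.43 in Mut+/- and 7.73 to 7.96 in Mut+/+ kidneys. Their part in these results was not tested.

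In Mut-/- against Mut+/- kidneys, 7 of the 114 genes passed (6.14%), 6 higher and 1 lower, beside 2.54% of all genes. Among the genes named here these were Bach1, Aldh1a1, Aldh1a7 and Mgst3, all higher, and Btrc, which was lower (log2 difference -0.27, adjusted p = 0.0388). Bach1 and Aldh1a1 passed whichever array was left out, while leaving out 1 array ended the call of Aldh1a7 in 3 of 12 fits (adjusted p up to 0.0661) and that of Mgst3 in 10 of 12 (up to 0.106). The count was 5 without Mut-/- replicate 3, beside 2.2% of all genes, and 2 at the lowest. Blvrb, Ggct, Oplah, Lap3, Blvra, Chac1 and Txnrd3 did not pass against Mut+/-.

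**Figure D5:**
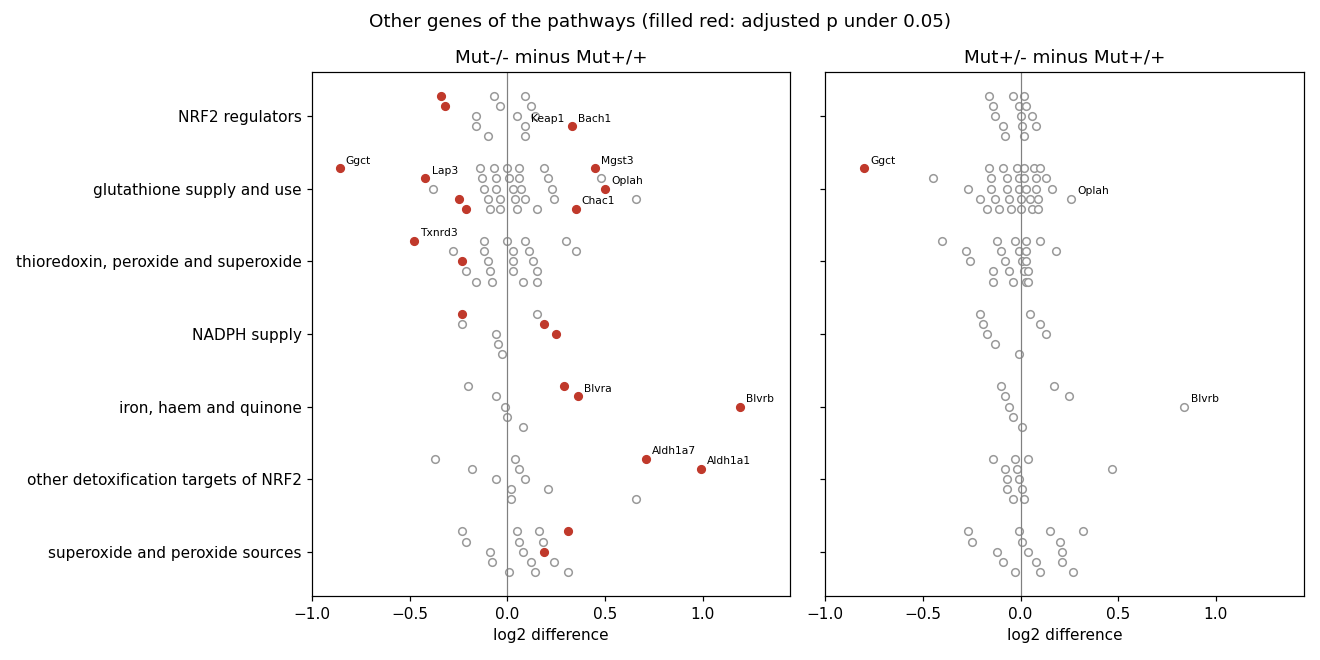
Log2 difference of the 114 further pathway genes by list, for Mut-/- minus Mut+/+ at the left and Mut+/- minus Mut+/+ at the right; each point is a gene and filled red points passed an adjusted p under 0.05. In the left panel 13 filled points lie to the right of 0 and 9 to the left, and in the right panel Ggct is the only filled point.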

How the data were processed

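The deposited values are on the log2 scale. The submitters' processing notes name RMA and, as software, Affymetrix Expression Console 1.2.1. Background correction, quantile scaling and probe summary by RMA compress differences near background. All 35552 probe sets and 12 arrays were read as deposited. The labels name the mouse gene 1.0 ST array in the descriptions and a human array in the labelling text, and the probe sets matched mouse genes. For probe set positions, no genome build is named in these sources, and none is printed.

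Probe sets with 1 symbol in the platform annotation (21785) gave 19934 genes, each by its brightest probe set. Differences were tested with limma 3.58.1 in R 4.3.3 (lmFit and eBayes, all 3 groups, no block), with Benjamini-Hochberg adjustment over 19934 genes per comparison and calls at an adjusted p under 0.05. Intervals are 95% from the same fit. For members called between Mut-/- and Mut+/+, two-sided exact permutation tests over the 8 arrays gave p = 0.0571 for Nqo1 and 0.0286, the smallest possible, for the other 5. The number of arrays limits the precision. The fit was tested on simulated data. Figures used Python 3.11.15 and matplotlib 3.10.9. The labels give no batch or date, and their numbering runs group by group.

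The genes, lists and tests were chosen with earlier results of these data known. Values are given for members called in any comparison and for fixed members (Nfe2l2, Nqo1, Hmox1, Gclc, Gclm, Txnrd1, Srxn1, Gpx3, Gpx4, Cat, Sod2, Osgin1). Of the further pathway genes, Keap1, Bach1 and the 10 called ones with the largest difference between Mut-/- and Mut+/+ are named. Ephx1, Gpx1, Cbr1, Btrc, Gsk3b, Dao and Pipox were added after their values were seen.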

Additional observations from a re-analysis of the deposited data

Results flagged for a closer look

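Within the 102 groups of 4 arrays formed by the 34 genes and 3 genotypes, 7 had a highest or lowest array far from the other 3 relative to the range of the group. Chance flags about 1 in 20 such groups. In Mut-/- kidneys this was Gstm3 in replicate 2, at 9.42 with the nearest array at 9.35. In Mut+/- kidneys it was Gclc in replicate 1, at 11.94 with the nearest at 11.50, and Prdx3 in replicate 3, at 10.51 with the nearest at 10.55. In Mut+/+ kidneys it was Hmox1 in replicate 2, at 8.37, Gpx1 in replicate 1, at 12, Cbr3 in replicate 4, at 6.31, and Ephx1 in replicate 1, at 10.01. The array of Gclc is the one of these with the largest gap, and Gclc passed in no comparison with or without it.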

How the results depend on the processing

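Mgst1, Cbr3, Gclm and Gpx4 passed between Mut-/- and Mut+/+ under all 10 other settings and without each array in turn. Nqo1 did not pass with only the groups compared in the fit (adjusted p = 0.0521) or without Mut+/+ replicate 3 or 4, and Sod1 did not pass under 4 settings, with adjusted p up to 0.164. The members called numbered 4 to 8 for Mut-/- against Mut+/+, 3 to 8 for Mut-/- against Mut+/- and 0 for Mut+/- against Mut+/+ when 1 array was left out. The further pathway genes called then numbered 13 to 23, 2 to 9 and 0 to 2. Of all genes 5.11% to 9.67%, 1.15% to 2.97% and 0.0251% to 0.336% passed in these fits. With only the groups compared in the fit, which has fewer samples, 1 member and 2 pathway genes passed in Mut-/- against Mut+/-, 13 pathway genes in Mut-/- against Mut+/+ and 4 in Mut+/- against Mut+/+. Of all genes 0.958%, 5.79% and 0.391% passed in these fits. Mut+/- against Mut+/+ had 2 members and 3 pathway genes with array weights, and 1 and 2 with a trended and robust prior. Of all genes 0.818% and 0.211% passed under these settings, against 0.135% in the main fit. The cause of these shifts was not tested. Among the members whose values are given in every array, uncalled differences between Mut-/- and Mut+/+ changed sign for Gstm2, Hmox1 and Osgin1 with pooled controls (0.10, 0.11 and -0.10), and, on leaving out single arrays, for Nfe2l2 (-0.11 to 0.00), Hmox1 (-0.09 to 0.10) and Osgin1 (-0.08 to 0.17). For the other members only Mut-/- replicates 2 and 3 were checked in turn, and the sign changed for Gsta4, Gsto1, Gpx2 and Gsr. Gsta4 was 0.03 without Mut-/- replicate 2, and Gsto1 was -0.02 and Gpx2 -0.07 without replicate 3. Gsr, just above 0 with all arrays, was -0.04 without replicate 2 and -0.04 without replicate 3. With the replicate number as a block, 5 members passed in Mut-/- against Mut+/+, 5 in Mut-/- against Mut+/- and 0 in Mut+/- against Mut+/+, and the pathway genes numbered 18, 4 and 0. Of all genes 7.79%, 2.03% and 0.0351% passed with that block. Deviations of arrays with the same number correlated between -0.24 and 0.17. With 4 arrays per group this cannot decide whether the numbers pair the mice, and the labels do not say. Low signal limits Gpx2, whose group means were under 6.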
